A study of Mus musculus with 2 samples.

Results

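Most proteins of mitochondria are made in the cytosol from nuclear genes and have to be imported, folded and, where damaged, degraded. Expression of 49 nuclear genes of this machinery was compared in the gastrocnemius, a calf muscle, between mice lacking PGC-1β in myofibres, PGC-1β(i)skm-/-, and control mice, out of 19936 named nuclear genes measured. They are all genes whose symbol starts with Tomm or Timm (24 genes, Timmdc1 left out) and 25 of 26 further genes for import subunits, matrix chaperones, processing peptidases and proteases, taken by symbol and role with earlier results of these data known. Immp2l is not named in the annotation used here, and Timm10b shared its only probe set with Dnhd1 (log2 signals of 5.67 in control and 5.60 in mutant muscle), so that both were left out.

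Each genotype was measured on 1 array with RNA pooled from 3 male C57BL/6 mice aged 8 weeks. The mutants carried floxed PGC-1β alleles and the HSA-Cre-ERT2 transgene, a tamoxifen-dependent recombinase driven in myofibres by regulatory elements of human skeletal actin. Control littermates carried the floxed alleles without the transgene, and are named wild-type in the labels. Tamoxifen was given to both genotypes at 7 weeks of age (5 daily doses, 1 mg each), and muscle was taken 1 week after the last dose. The transgene was present in the mutants only, so that its own effect and that of the deletion cannot be told apart. With 1 array per genotype there is no replicate error, no test was made, and precision is limited by the number of arrays. Values are log2 RMA signals of a probe set, and a difference is PGC-1β(i)skm-/- minus control on that scale.

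The arrays were first checked for the targeted gene and the tissue. Ppargc1b, encoding PGC-1β, had log2 signals of 7.87 in control and 7.06 in mutant muscle, with a probe set that is not limited to the deleted exon. Myofibre genes such as Acta1 (log2 signals of 13.88 and 13.91) and Ckm (13.82 and 13.86) had high signals on both arrays, where the heart and liver markers had log2 signals of 6.97 and 6.91 (Myh6), 6.80 and 6.86 (Apoa1), 5.85 and 5.88 (Nppa) and 4.66 and 4.81 (Alb). Over 15 myofibre markers the median log2 difference was 0.01. All 13 markers of connective tissue and tendon were higher on the mutant array, with a median log2 difference of 0.24, and their summed linear signal was 13752 in control and 16120 in mutant muscle. Of 12 macrophage markers, 11 were higher, with a median of 0.23 and summed linear signals of 1700 and 2016. Of these 25 markers of other cells, Cd14 had the lowest control log2 signal, 5.45, and Dcn the highest, 12.48. Medians were 0.04 for 7 endothelial and 0.07 for 6 adipocyte markers, and Alas2, the only erythroid marker with a value, had log2 signals of 6.15 and 6.11. The part of these markers in the results was not tested. In a bulk sample a change in the number of cells of a type and a change in RNA per cell cannot be told apart.

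A precursor with an amino-terminal presequence passes the outer membrane through the TOM complex and the inner membrane through the TIM23 complex, pulled into the matrix by an ATP-driven motor. Precursors without a presequence take other routes, through small chaperones of the intermembrane space to the TIM22 complex for carriers, through the SAM complex for barrels of the outer membrane, or through a disulfide relay. In the matrix, peptidases remove the presequence, a chaperonin folds the protein, and ATP-dependent proteases degrade what is misfolded. Myofibres are rich in mitochondria and depend on this supply of imported enzymes.

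Import, chaperone and protease genes had mostly lower signals in PGC-1β(i)skm-/- muscle. The log2 difference was below 0 for 41 of the 49 genes (83.7%), and for 50.2% of all named nuclear genes. The median log2 difference was -0.13, a signal 8.51% lower, and the lower and upper quartiles were -0.17 and -0.03, whereas the median over all named genes was -0.00055. The signal was lower by 10% or more for 15 of the 49 genes (30.6%), and for 8.11% of all genes. A mutant signal of at most 0.8 times the control signal, the limit for a downregulated gene in the methods, was reached by 3 of the 49 genes, Timm21, Afg3l2 and Tomm40l, and by 0.652% of all genes. At a ratio of 1/1.2 or less, Timm44, Mtx2 and Timm8a1 joined them, giving 6 genes (12.2%), where 1.69% of all genes reached it. None of the 49 had a ratio of 1.2 or more, which 1.64% of all genes had, and Tomm34 was the highest. At 1.1-fold or more, 22 of the 49 genes were lower, and 10.1% of all genes, while at 1.5-fold none of the 49 and 0.0401% of all genes were. Since 41 of the 49 genes had a mean log2 signal of at least 8, and brighter genes were lower more often, the comparison was repeated above that level. Of these 41 genes, 36 (87.8%) were below 0 with a median of -0.14, against 58.5% and a median of -0.02 for all 5186 genes this bright. At this level 13 of 41 (31.7%) were lower by 10% or more, against 8.41%. Ratios of 0.8 or less were found for 3 of 41 (all genes this bright 0.868%), ratios of 1/1.2 or less for 5 of 41 (1.79%) and ratios of 1.2 or more for none (0.598%).

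**Figure D1:**
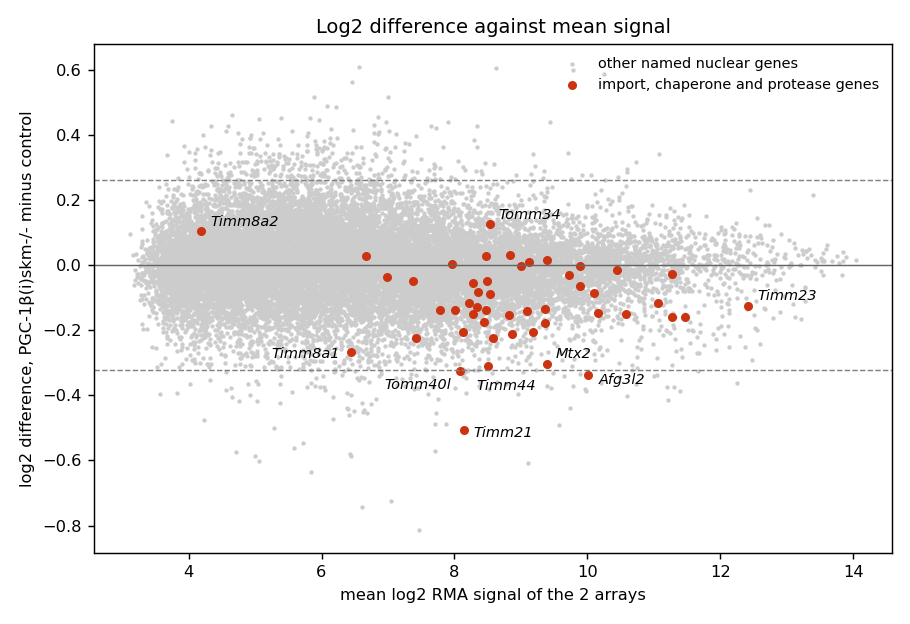
Points are named nuclear genes, placed by the mean of both log2 RMA signals (horizontal axis) and by the mutant minus control log2 difference (vertical axis), with the 49 import, chaperone and protease genes in red and ratios of 0.8 and 1.2 dashed. Timm21, Afg3l2 and Tomm40l lie under the lower dashed line, and Tomm34 is the highest red point.

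For 42 of the 49 genes a promoter window of 300 bases, 250 before and 50 from the transcription start, was given by RefSeq on build GRCm38.p6. The remaining 7 genes are Afg3l2, Grpel2, Hspa9, Htra2, Timm21, Tomm40l and Tomm7. PGC-1 coactivators have no DNA-binding domain of their own and act through transcription factors, among them the estrogen-related receptors (ERR), GA-binding protein (GABP, also called NRF-2) and NRF-1, so that the windows were searched on both strands for the letters of their elements. The GABP element CCGGAAG was in the window of 17 of the 42 genes (40.5%), and in that of 13.6% of 15614 named genes with a window. This share over all genes and those below include genes of any signal. Shares among genes of like signal or base composition were not taken. The ERR core AAGGTCA was found for 5 of 42 genes (11.9%, all genes 4.48%), Hspd1, Hspe1, Timm23, Timm44 and Timm8b. The windows of Hspd1 and Hspe1 overlap, and the same ERR core and the same GABP letters were counted for both genes. Its longer form TNAAGGTCA, which contains the core, was found for Timm8b alone (2.38%, all genes 1.17%). The NRF-1 element CGCATGCG, which reads the same on both strands, was in the windows of Clpx and Timm13 (4.76%, all genes 3.00%). The element AAGATGGCG of YY1, a zinc finger factor, was in 4 windows (9.52%, all genes 2.29%), those of Immp1l, Mtx1, Mtx3 and Timm50. The differences of genes with and without an element overlapped. The median log2 difference was -0.09 for the 17 genes with the GABP element and -0.13 for the 25 without, and the 17 ranged from -0.30 for Mtx2 to 0.13 for Tomm34. It was -0.12 with and -0.11 without the ERR core, and -0.02 with and -0.13 without the YY1 element. The 6 windows printed with the results are those of the genes with the largest decreases among the 42 (Timm44 and Mtx2), of genes with both ERR and GABP letters (Timm23, Hspe1 and Timm8b) and of a protease with the NRF-1 element (Clpx), and capitals mark the letters of these elements on either strand.

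Of the TOM complex, Tomm40, the pore of the outer membrane, had log2 signals of 8.23 in control and 8.03 in mutant muscle, a signal 13.2% lower. Tomm40l, the second gene for a pore of this kind, had 8.24 and 7.92 and was 20.2% lower. The ratio of Tomm40l, 0.798, lay just inside the 0.8 threshold, and once the trend of the difference with signal (loess) was subtracted, its log2 difference was -0.31 in place of -0.33, outside it. Among the receptors, Tomm22, which also organises the complex, had log2 signals of 9.45 and 9.28, and Tomm70a, which binds carrier precursors, had 8.89 and 8.74. Tomm20, the receptor for presequences, was nearer to 0, with 9.91 in control and 9.85 in mutant muscle. Tomm20l, its paralogue, had 6.66 and 6.69. The small subunits that stabilise the pore differed from each other, Tomm5 with log2 signals of 8.08 and 7.94, Tomm6 with 8.52 and 8.47 and Tomm7 with 9.38 and 9.40. Tomm34, a co-chaperone of the cytosol and not a subunit of the complex, was 9.15% higher, with 8.47 and 8.60. Over the 10 Tomm genes, 7 were below 0 and the median log2 difference was -0.10.

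The TIM23 complex contained the gene of largest decrease, Timm21. This subunit contacts the TOM complex from the inner membrane and also takes part in the assembly of respiratory chain complexes. Its log2 signal was 8.40 in control and 7.89 in mutant muscle, 29.6% lower, and it was ranked 14 of all 19936 named genes by decrease, whereas no other gene of the 49 was among the first 80. The channel genes had smaller differences, with log2 signals of 12.48 and 12.36 for Timm23, 11.13 and 11.01 for Timm17a and 8.39 and 8.31 for Timm17b. Timm50, the receptor that hands presequences to the channel, had 9.12 in control and 9.13 in mutant muscle. The log2 difference was thus -0.51 for Timm21, and between -0.12 and 0.01 for the other 4 genes of the complex. The promoter window of Timm23 (GRCm38.p6, chr14:32201842-32202141, minus strand) carries the ERR core and the GABP element in overlap, 15 and 11 bases into the transcript, and a further GABP element on the other strand 47 bases before the start.
Timm23: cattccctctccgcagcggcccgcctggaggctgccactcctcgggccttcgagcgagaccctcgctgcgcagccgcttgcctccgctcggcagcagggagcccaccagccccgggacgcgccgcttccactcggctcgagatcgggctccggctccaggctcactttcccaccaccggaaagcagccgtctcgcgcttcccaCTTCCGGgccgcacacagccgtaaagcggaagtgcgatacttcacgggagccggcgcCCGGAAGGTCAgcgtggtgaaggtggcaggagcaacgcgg

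Of the 7 genes of the import motor, 6 were below 0 by more than 0.05 on the log2 scale of differences, Pam16 lay at -0.00086, and the median was -0.15. Timm44, which tethers the motor to the channel, was 19.3% lower, with log2 signals of 8.65 and 8.34. Hspa9, encoding mortalin, the Hsp70 that pulls the precursor, had 11.54 in control and 11.38 in mutant muscle. Its nucleotide exchange factors were lower by similar amounts, Grpel1 with 9.42 and 9.29 and Grpel2 with 8.53 and 8.35. The J proteins that stimulate the ATPase of mortalin had log2 signals of 10.23 and 10.09 for Dnajc15 and of 8.58 and 8.49 for Dnajc19. Pam16, which restrains the J protein, had 9.90 on both arrays, and its log2 difference turned to 0.01 with the loess trend subtracted. Timm44 lay just outside the 0.8 threshold, with a ratio of 0.807. It had the largest decrease of the genes with a promoter window, and the ERR core lies across its start in that window, beginning 5 bases before it (GRCm38.p6, chr8:4275856-4276155, minus strand).
Timm44: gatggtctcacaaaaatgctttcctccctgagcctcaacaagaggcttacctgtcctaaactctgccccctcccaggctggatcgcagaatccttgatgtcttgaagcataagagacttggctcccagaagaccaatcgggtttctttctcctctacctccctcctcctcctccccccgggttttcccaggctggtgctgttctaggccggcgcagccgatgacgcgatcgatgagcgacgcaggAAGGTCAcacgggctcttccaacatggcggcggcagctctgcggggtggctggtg

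The carrier route and its small chaperones were divided. Timm22, the channel for carriers, had log2 signals of 7.97 in both genotypes, and Timm29, another subunit of the complex, had 8.27 and 8.16. Small TIM proteins work in hexamers that escort hydrophobic precursors across the intermembrane space. In the hexamer of Timm9 and Timm10, Timm9 was 9.13% lower (log2 signals of 7.85 and 7.71) and Timm10 was 3.38% lower (7.39 and 7.34). In the other hexamer, Timm13 had log2 signals of 8.46 and 8.49, and its partner was measured as Timm8a1, 16.9% lower at log2 signals of 6.58 and 6.31, and as Timm8b, 1.80% lower at 11.28 and 11.26. Timm8a2 was the dimmest of the 49 genes, with log2 signals of 4.14 and 4.24, the only one with a mean signal under 6.

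The start sites of Timm8b and of Sdhd, a membrane subunit of complex II, lie 52 bases apart on opposite strands, so that a single window holds the start region of both. The window holds the longer ERR element, 96 bases before the start of Timm8b, and a GABP element 12 bases before it. Timm8b was 1.80% lower, whereas Sdhd had log2 signals of 10.92 in control and 10.55 in mutant muscle, a difference of -0.36. The window is GRCm38.p6, chr9:50603651-50603950, plus strand.
Timm8b: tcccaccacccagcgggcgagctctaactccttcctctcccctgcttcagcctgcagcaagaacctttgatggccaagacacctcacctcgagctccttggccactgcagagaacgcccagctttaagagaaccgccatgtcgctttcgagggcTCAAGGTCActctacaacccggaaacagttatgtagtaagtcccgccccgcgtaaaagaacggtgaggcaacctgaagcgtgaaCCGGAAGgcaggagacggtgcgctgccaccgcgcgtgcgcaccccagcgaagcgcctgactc

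Of the SAM complex, which inserts barrel proteins such as Tomm40 into the outer membrane, all 4 genes were below 0. Samm50, the barrel at its centre, had log2 signals of 11.35 in control and 11.19 in mutant muscle, 10.4% lower. The metaxins, its partners on the cytosolic side, differed, with Mtx2 19.0% lower (9.54 and 9.24), Mtx1 3.68% lower (8.30 and 8.25) and Mtx3 2.39% lower, the mutant log2 signal being 6.97. Mtx2 had a ratio of 0.81, next outside the 0.8 threshold after Timm44. Its promoter window (GRCm38.p6, chr2:74825562-74825861, plus strand) carries the GABP element at 2 places, 25 bases before the start and 7 bases into the transcript. The GABP element was also found for Mtx1 and Mtx3, whose differences were smaller.
Mtx2: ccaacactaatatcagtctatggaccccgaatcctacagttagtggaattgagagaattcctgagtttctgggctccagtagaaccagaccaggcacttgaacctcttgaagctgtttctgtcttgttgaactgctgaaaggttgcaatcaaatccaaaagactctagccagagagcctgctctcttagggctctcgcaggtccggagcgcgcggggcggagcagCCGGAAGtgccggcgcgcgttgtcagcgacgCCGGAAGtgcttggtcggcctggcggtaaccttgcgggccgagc

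In the disulfide relay, which traps cysteine-rich proteins in the intermembrane space, the 2 genes went apart. Chchd4, the oxidoreductase that forms the disulfides, was 14.4% lower, with log2 signals of 7.54 and 7.32. Gfer, the sulfhydryl oxidase that recharges it, had 8.82 in control and 8.85 in mutant muscle. The peptidases that cut presequences were also uneven. Pmpca and Pmpcb, the subunits of the main matrix peptidase, had log2 signals of 10.45 and 10.43 and of 9.73 and 9.70, and Immp1l, of the inner membrane peptidase, had a log2 difference of -0.00132. Mipep, which trims some precursors after the first cut, was 13.2% lower, at 9.29 and 9.08.

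Genes of the chaperonin and of the proteases had lower signals throughout. Hspd1, encoding Hsp60, the chaperonin barrel, had log2 signals of 10.66 in control and 10.51 in mutant muscle, and Hspe1, encoding Hsp10, its lid, had 10.14 and 10.05. They are transcribed from opposite strands, and their promoter windows cover largely the same bases. The window of Hspe1 (GRCm38.p6, chr1:55087898-55088197, plus strand) holds the GABP element on both strands in overlap, beginning 80 and 77 bases before its start, and the ERR core 48 bases before it.
Hspe1: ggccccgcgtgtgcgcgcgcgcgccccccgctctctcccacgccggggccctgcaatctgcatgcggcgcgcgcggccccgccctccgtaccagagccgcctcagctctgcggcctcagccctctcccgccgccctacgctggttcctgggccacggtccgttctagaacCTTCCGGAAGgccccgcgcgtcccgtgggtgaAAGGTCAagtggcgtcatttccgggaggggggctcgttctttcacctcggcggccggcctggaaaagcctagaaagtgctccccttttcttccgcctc

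All 7 protease genes were below 0, with a median log2 difference of -0.15 and the highest of them, Afg3l1, at -0.13. Afg3l2, a subunit of the m-AAA protease of the inner membrane, had log2 signals of 10.18 and 9.84, 20.9% lower, and a ratio of 0.791. Its partners in that protease were lower by less, Spg7, encoding paraplegin, with 8.54 and 8.40 and Afg3l1 with 8.41 and 8.28. Lonp1, the main ATP-dependent protease of the matrix, had 8.35 in control and 8.20 in mutant muscle. Of the Clp protease, the unfoldase Clpx had 8.98 and 8.77 and the peptidase Clpp 9.16 and 9.02. Htra2, a protease of the intermembrane space, was 14.3% lower, at 8.69 and 8.46. The NRF-1 element lies 87 bases before the start of Clpx (GRCm38.p6, chr9:65294010-65294309, plus strand).
Clpx: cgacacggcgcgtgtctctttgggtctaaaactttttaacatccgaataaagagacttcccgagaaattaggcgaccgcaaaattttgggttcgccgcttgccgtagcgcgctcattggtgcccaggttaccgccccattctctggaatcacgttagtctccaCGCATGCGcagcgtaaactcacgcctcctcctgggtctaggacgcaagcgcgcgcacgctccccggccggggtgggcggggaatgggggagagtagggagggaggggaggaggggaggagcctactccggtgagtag

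**Figure D2:**
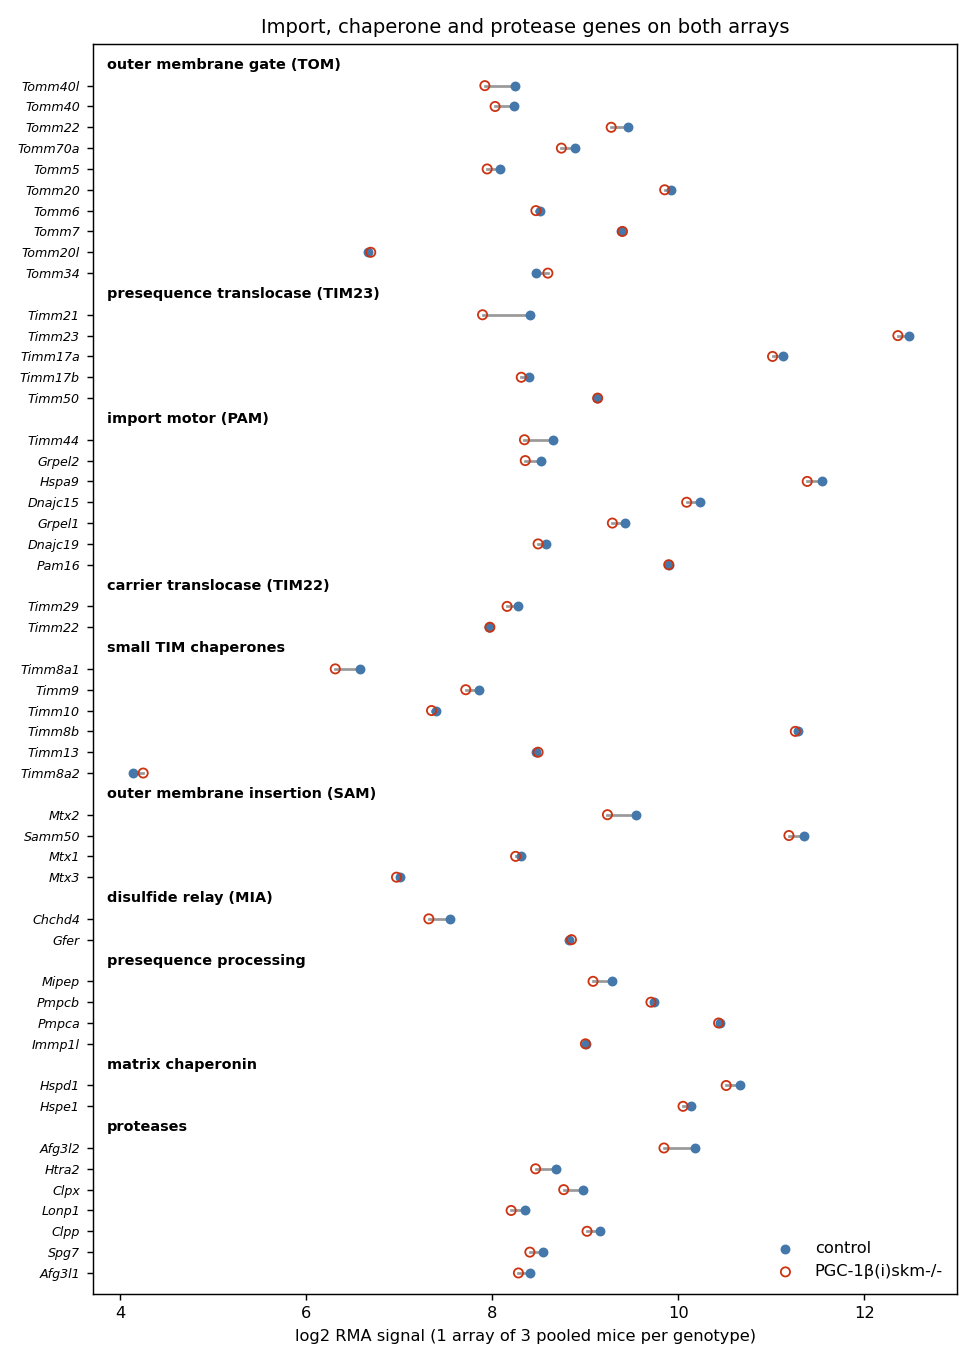
Log2 RMA signals of the 49 genes (horizontal axis) on the control array (filled blue) and the PGC-1β(i)skm-/- array (open red), 1 array of 3 pooled mice each, joined by a line for each gene and grouped by role (vertical axis, lowest difference first), on a scale that does not compare abundance between genes. Red lies to the left of blue for 41 genes, for all 7 proteases among them, and the longest line is that of Timm21.

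Paralogues and partners were set side by side. The widest gap, 0.24, was that of Timm8a1 (-0.27) and Timm8b (-0.03), which came to 0.12 with the probe set of Timm8a1 that is numbered among genes of its own chromosome. Between Tomm40l and Tomm40 the log2 differences were 0.12 apart, and between Afg3l2 and Afg3l1 0.21 apart, with Tomm40l and Afg3l2 the lower. Timm17a and Timm17b (-0.11 and -0.08), Grpel1 and Grpel2 (-0.14 and -0.17) and Pmpca and Pmpcb (-0.01 and -0.03) were within 0.04 of each other. Dnajc15 and Dnajc19 (-0.15 and -0.09) and Clpx and Clpp (-0.21 and -0.14) were 0.06 to 0.07 apart. Hspd1 and Hspe1 (-0.15 and -0.09) were 0.06 apart, and 0.20 apart with the probe sets numbered among genes of their own chromosome (-0.25 and -0.05). Tomm20 and Tomm20l (-0.06 and 0.03) and Mtx1 and Mtx3 (-0.05 and -0.03) were 0.09 and 0.02 apart. With a single array per genotype, no error can be put to these gaps.

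Several of these genes are represented by more than 1 probe set, or by a probe set that may lie at a copy elsewhere in the genome. Probe set numbers of this array follow the genome, since 99.7% of 18860 genes with a single probe set were numbered among genes of their own chromosome, judged by 5 neighbours on each side. The match to RefSeq by Entrez ID gave no chromosome for Grpel1 and Grpel2, so that their probe sets were not judged. For 8 of the 49 genes the probe set used was numbered among genes of another chromosome, and 6 of these 8 had another probe set among those of their own. Timm8a1 then had log2 signals of 5.74 and 5.60, a difference of -0.14 in place of -0.27, and no longer reached a ratio of 1/1.2 or less. Hspd1 moved the other way, with log2 signals of 10.02 and 9.77 and a difference of -0.25 in place of -0.15. Hspe1 was at -0.05 in place of -0.09, Pam16 at -0.03 in place of -0.00086, Tomm20 at -0.09 in place of -0.06, and for Timm23 an identical value was listed for both places. Tomm22 and Immp1l had a single probe set, numbered with another chromosome. This alternative was chosen after seeing the data. Which copy these probe sets measure was not tested, and the values of these 8 genes are uncertain to that extent. With the probe sets of the own chromosome for these 6 genes, and without Tomm22 and Immp1l, 39 of 47 genes were below 0 and the median log2 difference was -0.13. Grpel1 and Grpel2 were kept among the 47.

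**Figure D3:**
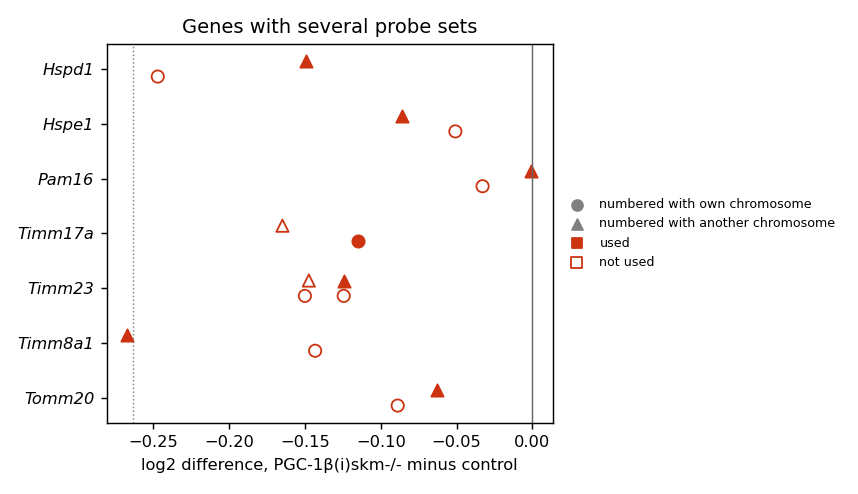
Mutant minus control log2 difference (horizontal axis) of every probe set of the 7 genes with more than 1 (vertical axis), as circles where its number lies among genes of the gene's own chromosome and triangles otherwise, filled where used, with a dotted line at a ratio of 1/1.2. Timm8a1 is left of the dotted line with 1 of its 2 probe sets, and Hspd1 is lower with the probe set not used.

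Like Timm8b and Sdhd, 10 more genes of the 49 lie head to head with a measured gene that is none of them, with starts up to 500 bases apart. This comparison was added after the values of the 49 genes had been seen, and the neighbours were taken by position alone. Of these 11 genes, 10 were below 0, and their median log2 difference was -0.11, and of the 11 neighbours, 8 were above 0, with a median of 0.06, where 49.6% of all named genes were above 0. The neighbour was the higher of the pair in 8 of 11. A gene at the median of all named genes (-0.00055) would be the higher beside 10 of these 11 genes. This count therefore says little about the neighbours themselves. Some neighbours were dim, with log2 signals of 4.29 and 4.17 for Catsperd, 5.06 and 5.21 for 2210406O10Rik and 6.09 on both arrays for Noxo1. Chchd4 was at -0.22 and Tmem43, a nuclear envelope protein, at 0.09, with log2 signals of 8.73 and 8.82. Timm23 was at -0.12 and Parg, which degrades poly(ADP-ribose), at 0.05, with log2 signals of 8.01 and 8.06. Timm17b was at -0.08 and Pqbp1, a splicing factor, at 0.13. Grpel1 (-0.14) and 2210406O10Rik (0.15), Timm9 (-0.14) and 2700049A03Rik (0.11), Timm29 (-0.11) and Yipf2 (0.06) and Immp1l (-0.00132) and Elp4 (0.10) showed the same order. The 3 pairs with the neighbour as the lower were Timm8b with Sdhd, Pmpca (-0.01) with Entr1 (-0.08) and Gfer (0.03) with Noxo1 (0.00488). In the remaining pair Lonp1 was at -0.15 and Catsperd at -0.13.

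**Figure D4:**
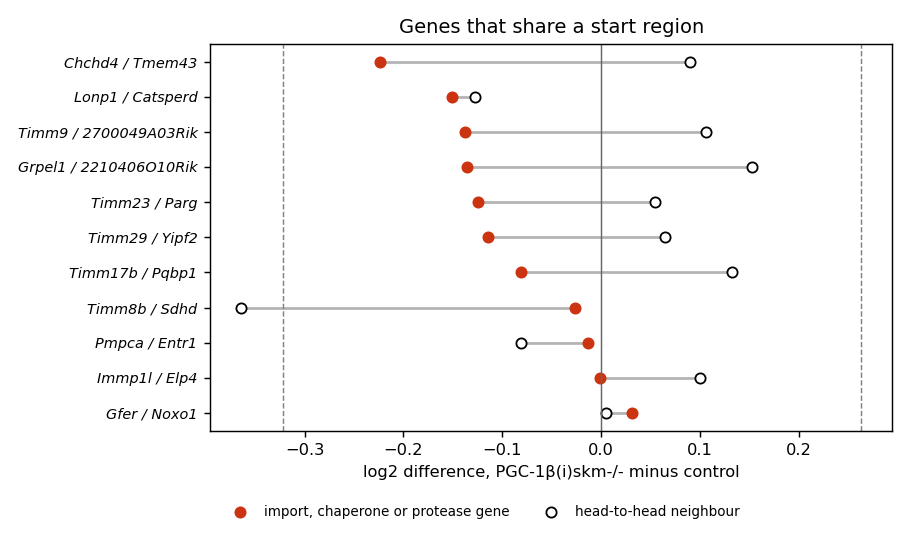
Mutant minus control log2 difference (horizontal axis) of 11 import, chaperone or protease genes (red) and of the gene that starts on the opposite strand within 500 bases (open circles), joined for each pair (vertical axis), with dashed lines at ratios of 0.8 and 1.2. The neighbour is to the right in 8 of 11 pairs, and Sdhd, at -0.36, is the farthest to the left.

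Further genes of import and quality control, listed apart from the 49, had a similar median. Of 22 with a value, 20 (90.9%) were below 0 and the median log2 difference was -0.11. Xpnpep3, a mitochondrial aminopeptidase, had log2 signals of 7.64 and 7.26 and was the lowest of them. It was the only one of the 22 at a ratio of 0.8 or less (0.769), 4.55% of them, and 0.652% of all named genes reached it. The highest was Oma1, a stress-activated protease of the inner membrane, with log2 signals of 8.21 and 8.27. Mitochondrial ribosomal proteins had a median of -0.11, with 68 of 77 (88.3%) below 0. At a ratio of 0.8 or less were 2 of the 77 (2.60%, all named genes 0.652%). At 1/1.2 or less there were 5 (6.49%, all named genes 1.69%). Cytosolic counterparts lay nearer to the median of all genes. Of 27 cytosolic chaperones, 15 (55.6%) were below 0, the median log2 difference was -0.00453, and none reached a ratio of 1/1.2 or less. Of 39 proteasome subunits, 24 (61.5%) were below 0, with a median of -0.02. A ratio of 1/1.2 or less was reached by 1 subunit (2.56%, all named genes 1.69%), Psmb10 of the immunoproteasome. Psmb10 had log2 signals of 7.29 and 7.02, and was chosen after its value was seen. No test of the differences between these lists was made.

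**Figure D5:**
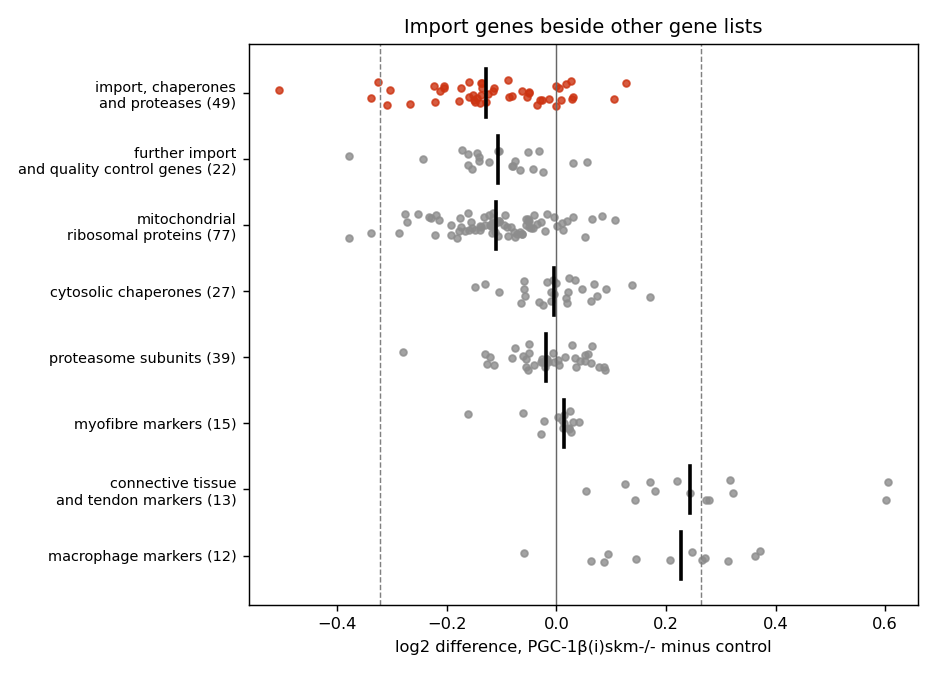
Log2 differences, mutant minus control (horizontal axis), for single genes of each list (vertical axis, number of genes in brackets), with the 49 import, chaperone and protease genes in red, black bars at the medians, dashed lines at ratios of 0.8 and 1.2 and vertical scatter for display only. Medians are -0.13 for the 49 genes, -0.11 for mitochondrial ribosomal proteins, -0.02 for proteasome subunits and 0.24 for markers of connective tissue and tendon.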

How the data were processed

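RNA was hybridized to 2 Affymetrix Mouse Gene 1.0 ST arrays, 1 per genotype. The authors made the deposited log2 signals per probe set by RMA in Expression Console, which corrects the background, equalizes the distributions of both arrays and summarizes probes. This scaling would hide a shift common to all genes, small differences of dim probe sets are compressed, and no measure of detection was used. No source used here names the genome build of the probe sets.

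Of 35556 probe sets, 21789 had 1 gene symbol in the platform annotation, of which 21698 were matched to RefSeq by Entrez ID, while 1621 had several and 12146 none and were left out. The probe set of highest mean signal stood for a gene. A ratio is 2 raised to the log2 difference. The members and lists were chosen with earlier results of these data known, and any of the 49 genes could be named. Of other lists, genes past a threshold or at an end were named, and marker genes. Alternatives were other choices of probe set, filters at mean log2 signals of 6 and 7, centring by the median or by loess (span 0.3), and thresholds of 1.1-fold and 1.5-fold; probe sets by chromosome were added after the data were seen. Calculations used Python 3.11.15, pandas 2.3.3, numpy 2.4.6 and statsmodels 0.14.6 and were tested on simulated data.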

Additional observations from a re-analysis of the deposited data

How the results depend on the processing

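Under 8 alternatives for the probe set, filter and centring, the median log2 difference of import, chaperone and protease genes stayed between -0.14 and -0.12. Below 0 were 39 of 49 genes with the loess curve subtracted and 39 of 45 at a mean log2 signal of at least 7. There were 39 of 47 with probe sets by chromosome, 42 of 50 with shared probe sets included, and 41 under the other alternatives. At a ratio of 0.8 or less there were 3 genes, or 2 with the loess curve subtracted, without Tomm40l, and at a ratio of 1/1.2 or less 5 or 6. With a threshold of 1.1-fold in place of 0.8, 22 genes were lower (10.1% of all named genes), and with 1.5-fold 0 (0.0401%). No gene was higher at 1.2-fold, where 1.64% of all named genes were, and the highest as reported, Tomm34, had a ratio of 1.09. The medians of the role groups kept within 1.5 times of the value given or within 0.02 of it under these 8, and those of the other lists and of the myofibre, connective tissue, macrophage, endothelial and adipocyte markers under the 7 that apply to them. No paired analysis was possible because each genotype has a single array, and no array could be left out. Dim probe sets, such as those of Timm8a2, limit what can be read from them, and with no replicates the spread between mice is unknown.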
